A study of Mus musculus with 27 samples.

Results

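Nuclear receptors are transcription factors whose activity is set by small fat-soluble ligands such as steroids, bile acids and foreign chemicals. The genes of 9 of them (Hnf4a, Rxra, Nr1i3, Nr1h4, Nr1i2, Nr3c1, Nr5a2, Pparg and Esr1) were followed in mouse liver over 7 stages of a reproductive cycle. They were taken as a named list of liver nuclear and hormone receptors and matched to the gene identifiers of the tables. All 9 were found among the 51826 genes listed, and all 9 were among the 16428 genes with enough reads to be tested.

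In the liver these receptors divide the work between a few tasks. HNF4A is active without a switch-like ligand and keeps hepatocyte genes on, FXR (Nr1h4) senses bile acids, PXR (Nr1i2) and CAR (Nr1i3) sense drugs and steroids and drive cytochrome P450 genes, and LRH-1 (Nr5a2) acts in bile acid synthesis. RXR alpha (Rxra) binds DNA as the partner of FXR, PXR, CAR and PPAR gamma (Pparg), while the estrogen receptor alpha (Esr1) and the glucocorticoid receptor (Nr3c1) bind steroid hormones and are held ready for them by HSP90 chaperones.

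Whole livers came from wild-type Balb/C mice, an inbred laboratory strain, with no transgene or drug named for any group, and each animal gave 1 library. The groups were nulliparous mice (NUL, n = 4), mice at lactation day 10 (LAC, n = 3), mice 2, 4, 6 and 8 days after their pups were removed, stages named involution days (ID2, n = 3, ID4, n = 4, ID6, n = 6 and ID8, n = 3), and mice 4 weeks after weaning (REG, n = 4). Breeding was at an age of 10 to 12 weeks, weaning was at lactation day 10 to 14, and the groups were matched for age. Frozen liver was powdered before RNA extraction, so a value averages all cell types of the organ. In such bulk tissue, fewer cells of a type and less RNA per cell cannot be told apart.

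Libraries held 41120650 to 75664540 estimated reads. The 8 hepatocyte markers checked were detected in every library and together took 99690 to 238500 CPM, the share of reads scaled between libraries by TMM. One library stood apart: ID2_31 held 1716 CPM of pancreas acinar transcripts, against 8.59 to 126 CPM elsewhere. Animals carried title numbers under 200 in 2 of 3 ID2, 2 of 4 ID4 and 3 of 3 ID8 mice and in no mouse of the other groups, a division the labels do not explain. A fit with the number range as a covariate therefore takes its effect from ID2 and ID4, the stages that hold both ranges.

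Compared per length of transcript (TPM, a length-scaled share of transcripts), the receptors spanned a wide range of levels in NUL liver. Hnf4a was highest at 173 ± 32.0 TPM (SD, n = 4). It was followed by Rxra at 106 ± 6.44 TPM and Nr1i3 at 95.3 ± 9.82 TPM, whose libraries overlapped. Below these stood Nr1h4 at 41.8 ± 7.42 TPM, Nr1i2 at 29.6 ± 3.35 TPM, Nr3c1 at 17.2 ± 1.40 TPM and Nr5a2 at 13.2 ± 1.04 TPM, each with no overlap between neighbours. Pparg at 5.75 ± 0.755 TPM and Esr1 at 4.32 ± 0.474 TPM were lowest and overlapped each other. The first 7 places kept this order in all 7 stages, although neighbours overlapped in some of them: Rxra and Nr1i3 in NUL, ID4, ID6, ID8 and REG, Nr1i3 and Nr1h4 in ID8 and REG, Nr1h4 and Nr1i2 in ID2, ID4 and ID8, and Nr3c1 and Nr5a2 in LAC, ID4, ID6 and REG. Pparg and Esr1 changed places in ID2, where Esr1 reached 6.26 ± 1.01 TPM against 4.92 ± 0.404 TPM for Pparg and no library overlapped.

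Of the 9 receptors, 4 differed among the 7 stages: Esr1 (edgeR adjusted p = 0.000950), Rxra (edgeR adjusted p = 0.00686), Nr3c1 (edgeR adjusted p = 0.0157) and Nr5a2 (edgeR adjusted p = 0.0480). The test was edgeR's joint quasi-likelihood test, with p-values adjusted over all genes by Benjamini and Hochberg. By it 27% of all genes differed among stages. Rxra and Esr1 stayed called in all 27 fits that left out 1 library and Nr3c1 in 26 (edgeR adjusted p 0.113 without LAC_213). In 9 other settings Rxra kept its call throughout, Esr1 lost it in 1 (edgeR adjusted p 0.1095 with only animals numbered 200 or over) and Nr3c1 in 3 (largest limma adjusted p 0.156, on log2(TPM + 1)). Nr5a2 lay close to the threshold and lost its call in 20 of the 27 (edgeR adjusted p up to 0.128, without LAC_213), and in 7 of 9 other settings, such as RLE factors (edgeR adjusted p 0.0529). Hnf4a, Nr1h4, Nr1i2, Nr1i3 and Pparg did not pass it, with edgeR adjusted p from 0.145 to 0.430, though Nr1i2 did without ID8_14 (edgeR adjusted p 0.0229). Across all 27 libraries the highest value exceeded the lowest by a factor of 1.48 for Rxra and 3.01 for Esr1, the narrowest and the widest span of the list.

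**Figure D1:**
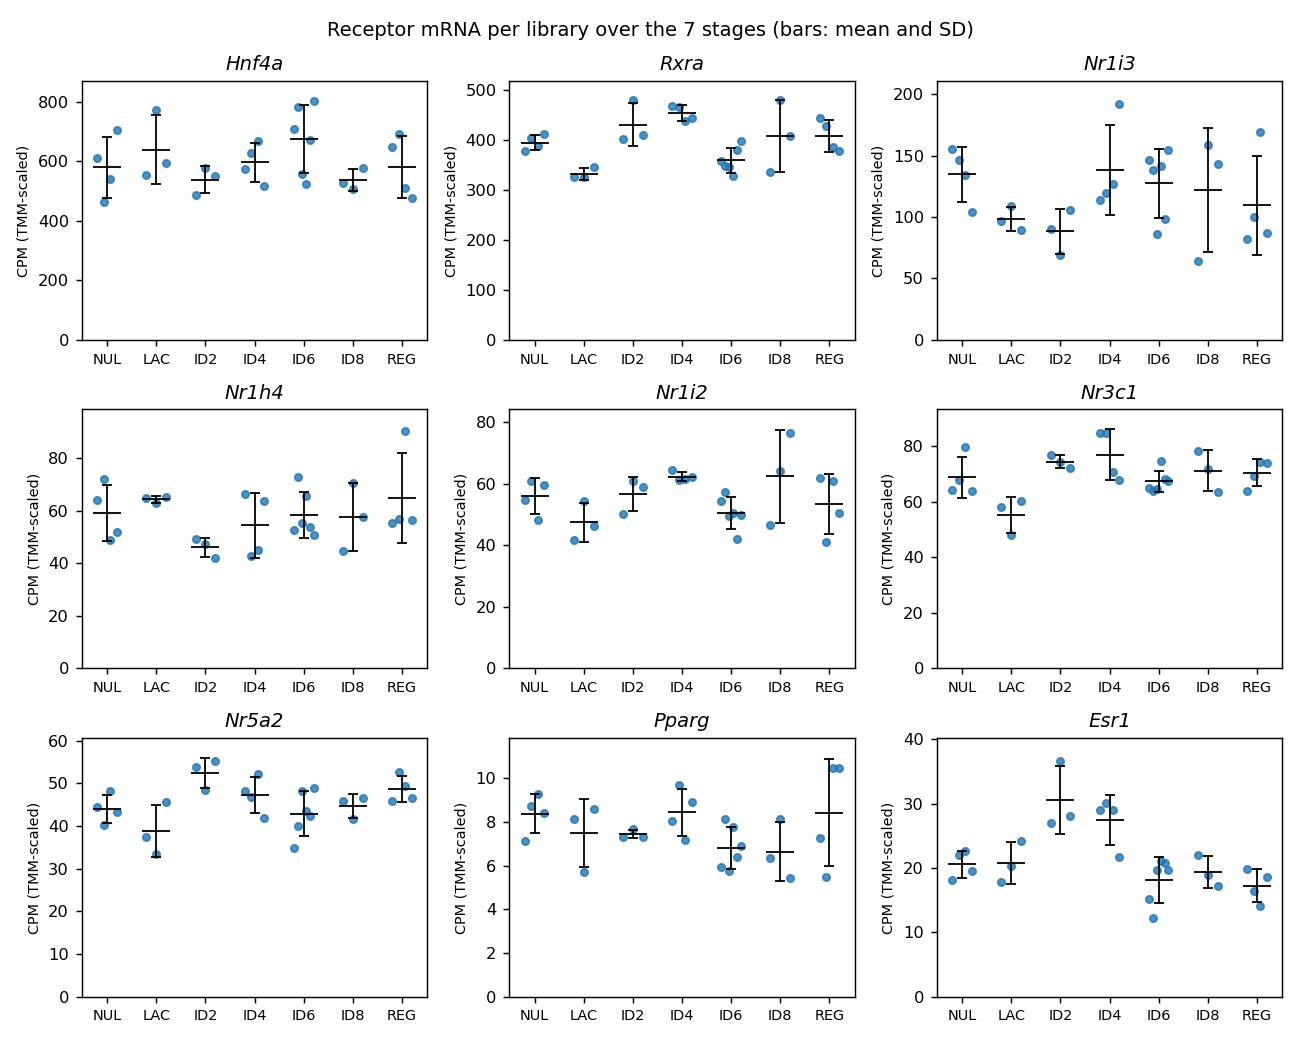
Each panel plots 1 receptor, with CPM (TMM-scaled, linear axis from 0) for each library as points over the 7 stages and bars for the mean and SD. Rxra, Nr3c1 and Nr5a2 means were lowest in LAC, and Esr1 means were highest in ID2 and ID4.

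The glucocorticoid receptor gene Nr3c1 (ENSMUSG00000024431, chromosome 18, 39410545 to 39519421, minus strand, mm10) was lowest in lactation. Its libraries read 64.3, 67.8, 79.6 and 63.7 CPM in NUL and 58.0, 48.0 and 60.1 CPM in LAC. At ID2 they read 76.7, 74.4 and 71.9 CPM. Every LAC library lay below every NUL and every ID2 library. Nr3c1 fell by 0.31 on the log2 scale in LAC against NUL (SE 0.10, edgeR adjusted p = 0.0359), so its level dropped by 19.6%. From LAC to ID2 it rose by 0.43 (log2, SE 0.10, edgeR adjusted p = 0.00657), to 1.34 times the LAC level. Later stages had means of 76.9 ± 9.06 CPM in ID4, 67.3 ± 3.89 in ID6, 71.1 ± 7.40 in ID8 and 70.4 ± 4.92 in REG (SD, n = 4, 6, 3 and 4). The fall in LAC lost its call in 4 of 7 fits that left out 1 library (edgeR adjusted p 0.0626 without NUL_221, 0.153 without NUL_226, 0.0568 without LAC_200 and 0.247 without LAC_213), and with only LAC and NUL in the fit (edgeR adjusted p 0.0977). Its rise from LAC to ID2 lost its call without LAC_213 (edgeR adjusted p 0.0621). In 10 other settings the fall lost its call in 3 and the rise in 4. The log2 differences in those settings ran from -0.36 to -0.31 for the fall and from 0.29 to 0.43 for the rise.

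Esr1 (ENSMUSG00000019768, chromosome 10, 4611593 to 5005614, plus strand, mm10), the estrogen receptor alpha gene, was highest in the first days after weaning. The NUL libraries read 18.2, 22.1, 22.6 and 19.5 CPM, and the LAC libraries 17.8, 20.4 and 24.2 CPM. At ID2 the readings were 26.98, 36.7 and 28.2 CPM, and at ID4 29.0, 30.1, 29.0 and 21.7 CPM. The ID2 libraries lay above all NUL and LAC libraries, while 1 of the 4 ID4 libraries lay within the NUL range. ID6 libraries fell to between 12.2 and 21.1 CPM with a median of 19.8, below all 4 ID4 libraries. ID8 (17.3 to 22.1 CPM) and REG (14.1 to 19.8 CPM) overlapped NUL.

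Esr1 rose from LAC to ID2 by 0.56 (log2, SE 0.18, edgeR adjusted p = 0.0315) and fell from ID4 to ID6 by 0.60 on the log2 scale (SE 0.14, edgeR adjusted p = 0.00797). ID2 thus stood at 1.47 times the LAC level, and from ID4 to ID6 the level dropped by 33.8%. Against NUL the ID2 difference was 0.57 (SE 0.16, edgeR adjusted p = 0.0510) and just missed the threshold, and DESeq2 called it (adjusted p = 0.0199). The level of the clock gene Dbp was 12.1 to 42.9 CPM in ID2, highest in ID2_39, and 0.825 to 6.65 CPM in LAC, so clock gene level and stage moved together here and the part of the clock in the Esr1 rise was not tested. Without ID2_39 the difference from LAC was 0.41 (edgeR adjusted p = 0.173), and the call was also lost without LAC_200 (0.133) and LAC_213 (0.1004). The rise lost its call in 5 of 10 other settings, with a difference of 0.18 (edgeR adjusted p = 0.616) where a covariate made from the clock genes was in the fit. The fall from ID4 to ID6 kept its call in all 10 fits without 1 library but also lost it in 5 of 10 other settings (edgeR adjusted p up to 0.177, with only animals numbered 200 or over).

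Rxra (ENSMUSG00000015846, chromosome 2, 27676440 to 27762957, plus strand, mm10) encodes the shared partner, and its mean was also lowest in lactation. NUL libraries read 377, 403, 387 and 412 CPM and LAC libraries 325, 326 and 345 CPM. The ID2 libraries read 401, 479 and 410.4 CPM and the ID4 libraries 468, 466, 438 and 443 CPM. Every LAC library was thus below every NUL, ID2 and ID4 library. The difference of -0.25 (log2) between LAC and NUL missed the threshold (SE 0.10, edgeR adjusted p = 0.104), whereas the rise from LAC to ID2 of 0.37 passed it (SE 0.10, edgeR adjusted p = 0.0149). Rxra fell from ID4 to ID6 by 0.34 on the log2 scale (SE 0.08, edgeR adjusted p = 0.0101), so the level dropped by 20.9%, and the ID6 libraries, 327 to 398.5 CPM, did not overlap ID4. ID8 was spread from 335.5 to 480.3 CPM and REG from 377.5 to 443 CPM. The rise to ID2 lost its call without LAC_213 (edgeR adjusted p 0.0596) and without ID2_39 (edgeR adjusted p 0.0978), and the fall to ID6 kept its call without each library in turn. In 10 other settings the rise lost its call in 3 (edgeR adjusted p up to 0.2195, with only animals numbered 200 or over) and the fall in 5 (largest limma adjusted p 0.113, on log2(TPM + 1)).

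Nr5a2 (ENSMUSG00000026398, chromosome 1, 136842571 to 136960448, minus strand, mm10), the LRH-1 gene, rose from lactation to ID2. LAC libraries read 37.5, 33.4 and 45.6 CPM and ID2 libraries 53.8, 48.4 and 55.1 CPM. NUL libraries, at 44.4, 40.3, 48.1 and 43.4 CPM, lay between them and overlapped LAC but not ID2. Nr5a2 rose by 0.43 (log2, SE 0.11, edgeR adjusted p = 0.00953) from LAC to ID2, whereas the difference from NUL to ID2, 0.25 (SE 0.10, edgeR adjusted p = 0.200), missed the threshold. Pancreas acinar cells also express LRH-1, and their part in the Nr5a2 values was not tested. Without ID2_31, the library with pancreas transcripts, the rise from LAC was 0.42 (edgeR adjusted p = 0.0351), and without LAC_213 it was 0.34 (edgeR adjusted p = 0.0823). It lost its call in 4 of 10 other settings (edgeR adjusted p up to 0.133, with only animals numbered 200 or over).

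Because 3 of the receptors that rose from LAC to ID2 have start sites in the RefSeq table of the same assembly (GRCm38.p6), 1 upstream window of 250 bases is shown for each, picked after the motif search from the windows that held a match. The windows run 5′ to 3′ on the gene's strand and end at the annotated start. Nr5a2 is chr1:136960449-136960698 on the minus strand, Rxra is chr2:27709042-27709291 on the plus strand, and Esr1 is chr10:4709908-4710157 on the plus strand. Capitals mark the matches: AGGTCA, the half-site that many nuclear receptors bind, AGAACA, a glucocorticoid half-site, and TTCNNNGAA, the core bound by STAT factors of prolactin signalling.
Nr5a2: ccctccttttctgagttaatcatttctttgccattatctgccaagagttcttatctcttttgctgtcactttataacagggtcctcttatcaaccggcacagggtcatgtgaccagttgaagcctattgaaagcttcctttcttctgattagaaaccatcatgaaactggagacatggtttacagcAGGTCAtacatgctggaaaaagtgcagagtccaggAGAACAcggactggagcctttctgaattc
Rxra: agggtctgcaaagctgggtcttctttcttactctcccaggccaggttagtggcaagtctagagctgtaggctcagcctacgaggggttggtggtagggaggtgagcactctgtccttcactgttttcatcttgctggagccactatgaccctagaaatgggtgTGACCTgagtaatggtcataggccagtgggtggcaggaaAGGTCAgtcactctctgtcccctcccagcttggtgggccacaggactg
Esr1: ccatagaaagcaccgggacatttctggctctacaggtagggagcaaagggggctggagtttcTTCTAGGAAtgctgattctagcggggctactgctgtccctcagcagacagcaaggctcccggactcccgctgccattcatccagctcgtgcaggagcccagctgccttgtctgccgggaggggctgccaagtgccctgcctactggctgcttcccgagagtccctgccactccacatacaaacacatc

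In Nr5a2 the AGGTCA match began at position -64 from the start and the AGAACA match at -29. The other Nr5a2 window, not shown, held TGTTCT, the reverse complement of AGAACA, at -188. In Rxra the half-site occurred at -87 (as TGACCT, its reverse complement) and at -48. Esr1 held TTCTAGGAA at -188. The other Rxra and Esr1 windows, not shown, lie upstream of these, nearer the 5′ ends of the genes, and held none of the motifs searched. Both strands were searched, and AGGTCA and AGAACA do not overlap each other in these windows. The windows counted ran from 250 bases before to 50 after each start. AGGTCA occurred in 16.3% of 32851 windows of all genes and in 5 of 14 windows of the 8 receptors other than Nr3c1. AGAACA occurred in 19% of all windows and 3 of the 14, TTCNNNGAA in 8.3% and 1 of the 14, and the E-box CACGTG in 7.15% and 1 of the 14 (Nr1i3). Full DR1, estrogen and glucocorticoid response elements were in 0.0396%, 0.0213% and 0.00913% of all windows and in 0 of the 14. A match describes letters and not binding.

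Nr1h4 (ENSMUSG00000047638, chromosome 10, 89454234 to 89533585, minus strand, mm10), the bile acid receptor gene, had lower values in ID2 than in LAC, short of the threshold. LAC libraries read 65.0, 62.8 and 65.3 CPM and ID2 libraries 49.1, 47.3 and 42.1 CPM, with no overlap. The log2 difference was -0.48 (95% interval -0.90 to -0.06, edgeR adjusted p = 0.113), and it was called when only LAC and ID2 were fitted (edgeR adjusted p = 0.00354). In NUL the values ran from 49.0 to 71.9 CPM, so the NUL and LAC libraries overlapped. REG held the highest single value of the gene, 90.5 CPM, with the other REG libraries at 55.5 to 57.0 CPM.

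The xenobiotic sensors were not called in any comparison with all 27 libraries in 1 fit. Nr1i3 (ENSMUSG00000005677, chromosome 1, 171213970 to 171220701, plus strand, mm10) encodes CAR and had mean levels of 135 ± 22.4 CPM in NUL, 98.5 ± 9.91 in LAC and 88.5 ± 18.3 in ID2, then 138 ± 36.6 in ID4 (SD, n = 4, 3, 3 and 4). Its largest difference, 0.64 (log2) from ID2 to ID4, had a 95% interval of 0.03 to 1.25 and an edgeR adjusted p of 0.330. The gene overlaps Tomm40l on the opposite strand, and its estimated count was fractional in all 27 libraries, so its level is uncertain. Nr1i2 (ENSMUSG00000022809, chromosome 16, 38248323 to 38294824, minus strand, mm10) encodes PXR and had its lowest mean in LAC, 47.4 ± 6.39 CPM, against 55.9 ± 5.82 in NUL and 62.3 ± 1.47 in ID4. The 4 ID4 libraries, 61.2 to 64.4 CPM, lay above all NUL, ID2 and ID6 libraries. From ID4 to ID6 the log2 difference was -0.30 (95% interval -0.54 to -0.06, edgeR adjusted p = 0.110), and it was called with only ID4 and ID6 in the fit (edgeR adjusted p = 0.0309). From ID6 to ID8 Nr1i2 was called only without ID8_14 (log2 0.47, edgeR adjusted p = 0.0323).

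Hnf4a (ENSMUSG00000017950, chromosome 2, 163506808 to 163572910, plus strand, mm10) and Pparg (ENSMUSG00000000440, chromosome 6, 115360951 to 115490399, plus strand, mm10) were not called in any of the 11 comparisons either. Hnf4a means ran from 537 ± 37.3 CPM in ID8 to 674 ± 115 CPM in ID6 (SD, n = 3 and 6). For LAC against NUL its interval of -0.18 to 0.46 (log2, 95%) leaves room for a change of either sign. Pparg, which in mouse liver is known for driving fat storage genes, was the least counted member, with 210 to 764 estimated reads per library. Its means lay between 6.63 ± 1.36 CPM in ID8 and 8.44 ± 1.07 CPM in ID4. Both genes overlap antisense transcripts (Hnf4aos and Gm44079), and whether the counting used strand is not given in the sources used here.

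Between successive stages, the number of receptors called was 1 for LAC against NUL (Nr3c1, lower), 4 for ID2 against LAC (Nr5a2, Rxra, Esr1 and Nr3c1, higher), 0 for ID4 against ID2, 2 for ID6 against ID4 (Rxra and Esr1, lower), 0 for ID8 against ID6 and 0 for REG against ID8. Of all genes tested by the same edgeR fit, 11.2% were called in LAC against NUL, 16.1% in ID2 against LAC, 1.49% in ID4 against ID2, 8.53% in ID6 against ID4, 4.12% in ID8 against ID6 and 0.0487% in REG against ID8. Median log2 differences of the 9 receptors were -0.18 for LAC against NUL, 0.26 for ID2 against LAC and -0.19 for ID6 against ID4, beside -0.01, 0.02 and 0.01 for all genes. The first pair of comparisons shares the LAC libraries, so their differences are not independent of each other. Without LAC_213 none of the 4 receptors was called in ID2 against LAC. The number of all genes called there was then 1389, beside 2648 with all libraries.

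Against NUL, edgeR called 0 receptors in ID2, ID4, ID6, ID8 and REG, where 3.24%, 4.25%, 1.08%, 0.499% and 0.0852% of all genes were called. These 5 comparisons share the NUL libraries. At an unadjusted p under 0.05 the edgeR test held 2 receptors in ID2, 2 in ID4 and 0 in each of ID6, ID8 and REG, and DESeq2 called 1 in ID2 and 0 in the others. Between ID4 and ID2 the unadjusted count was 1, between ID8 and ID6 it was 2, and between REG and ID8 it was 0, with 0 called by DESeq2 in each. At REG the 9 differences from NUL lay within 0.30 of 0 on the log2 scale, but several intervals were wide. The 95% interval was -0.86 to 0.26 for Nr1i3, -0.57 to 0.06 for Esr1 and -0.23 to 0.49 for Nr1h4, and those of Rxra (-0.14 to 0.23) and Nr3c1 (-0.15 to 0.22) were narrower.

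**Figure D2:**
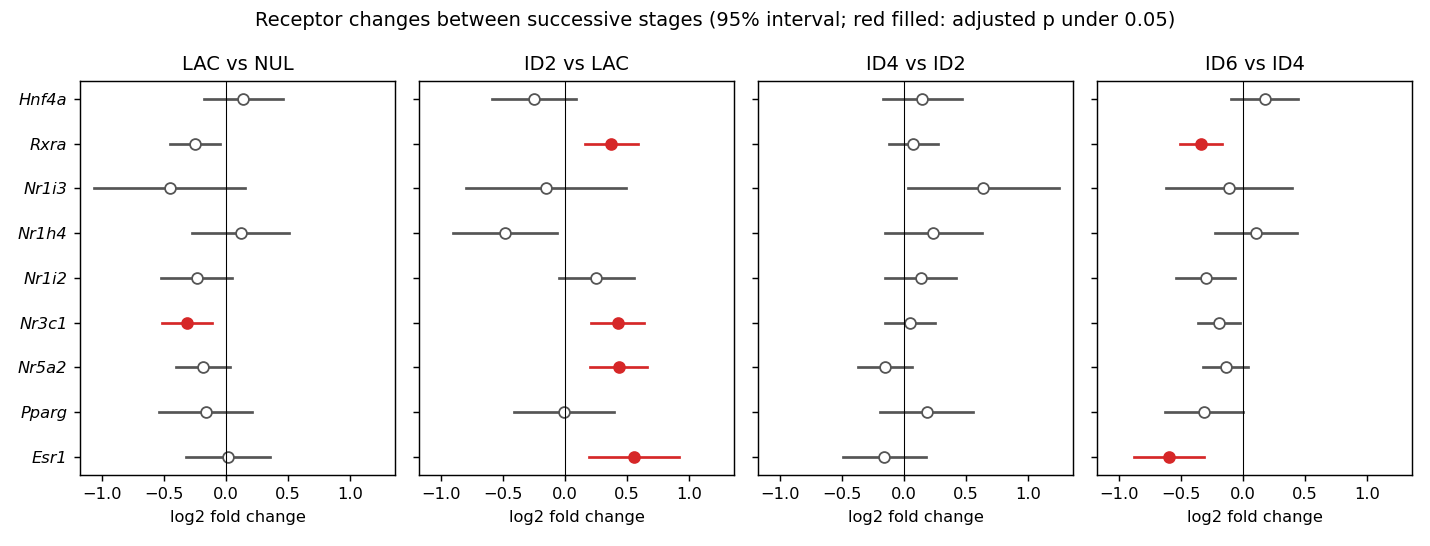
Log2 fold changes of the 9 receptors (points, from the edgeR fit) with 95% intervals (lines) for 4 successive comparisons, the called ones filled in red. In ID2 against LAC the 4 called receptors lie to the right of 0, and in ID6 against ID4 Rxra and Esr1 lie to the left.

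The early changes coincided with other differences between these groups. Kupffer cell markers summed to 239.3 to 341 CPM in LAC, 354 to 457 in NUL and 334 to 410.0 in ID2, with 5 of 7 markers called lower in LAC than in NUL and 4 of 7 called higher in ID2 than in LAC. Sinusoidal endothelial markers summed to 282 to 334 CPM in NUL, 223 to 268 in LAC and 309 to 325 in ID2, with 1 of 7 called lower in LAC than in NUL and 4 of 7 called higher in ID2 than in LAC. Stellate cell markers summed to 111 to 155, 88.0 to 100.7 and 113 to 122 CPM, with 3 of 7 called lower and then 2 of 7 called higher. In LAC against NUL, 2 of 5 bile duct and 2 of 7 T or B cell markers were also called lower. In the Kupffer, endothelial and stellate sets no marker was at 0 in any library. Hepatocyte markers summed to 106900 to 133500 CPM in NUL, 192000 to 238500 CPM in LAC and 148200 to 162300 CPM in ID2. These sums rest largely on albumin. That gene alone held 7.99% to 10.2% of estimated reads in NUL, 15.07% to 18% in LAC and 11.39% to 11.68% in ID2. Of 8 hepatocyte markers, 2 were called higher and 1 lower in LAC than in NUL, and again 2 higher and 1 lower in ID2 than in LAC. Adipocyte markers summed to 696 to 930.5 CPM in NUL, 440.0 to 543 in LAC and 538 to 713 in ID2, so that NUL and LAC did not overlap. Of 7 tested adipocyte markers, 1 was called lower in LAC than in NUL and 1 higher in ID2 than in LAC, and up to 3 of the 8 listed were at 0 in a library of these groups. Erythroid markers summed to 335 to 712 CPM in NUL and 768 to 1016 CPM in LAC, with no overlap, and to 410.5 to 1192 CPM in ID2, and edgeR called 0 of 5 in either comparison, with 0 at an unadjusted p under 0.05. Of 16 clock genes, 0 were called in LAC against NUL, and 3 were higher and 2 lower in ID2 than in LAC (median 0.59). Leaving out 1 library gave 0 (without LAC_213) to 6 (without LAC_240) called clock genes in ID2 against LAC. The part of these cell types and of the clock genes in the receptor changes was not tested. With the title number as a covariate, Nr5a2 kept its call in ID2 against LAC (edgeR adjusted p = 0.0346), while Rxra, Nr3c1 and Esr1 had edgeR adjusted p of 0.121, 0.121 and 0.222. With the clock covariate none of the 4 was called (edgeR adjusted p 0.125 to 0.616). Taking only the animals numbered 200 or over leaves 1 ID2 library. Over the 10 other settings, which include these, the log2 differences between ID2 and LAC all stayed above 0. They ran from 0.35 to 0.50 for Nr5a2, 0.29 to 0.41 for Rxra and 0.29 to 0.43 for Nr3c1. For Esr1 the range was wider, 0.18 to 0.59.

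Among 30 other nuclear receptors tested of 39 listed, 2 were higher and 3 lower in LAC than in NUL, and 3 were higher and 1 lower in ID2 than in LAC. List medians were -0.12 and 0.17 (log2). Without LAC_200 the list held 1 call in each of these comparisons. Counts for this and the following lists stand beside the share of all genes called. That share was 11.2% in LAC against NUL, 16.1% in ID2 against LAC and 8.53% in ID6 against ID4. Rarb, a retinoic acid receptor, was the named one that rose in LAC, by 0.73 (SE 0.24, edgeR adjusted p = 0.0436). From LAC to ID2, Thra, a thyroid hormone receptor, rose by 0.37 (SE 0.11, edgeR adjusted p = 0.0216) and Nr2f2 by 0.36 (SE 0.13, edgeR adjusted p = 0.0480). Ppard, the fatty acid sensor PPAR delta, moved against them: it fell from 26.9 ± 5.34 CPM in LAC to 12.3 ± 2.56 in ID2 (SD, n = 3 and 3, log2 -1.12, edgeR adjusted p = 0.0122), and it rose from 13.7 ± 3.68 in ID4 to 35.5 ± 1.23 in ID6 (n = 4 and 6, log2 1.37, SE 0.24). The last of these kept its call without each library in turn. Rarb lost its call in 5 of 7 such fits (edgeR adjusted p 0.128 without NUL_221), Nr2f2 in 5 of 6 (0.163 without LAC_200), Thra in 3 of 6 (0.136 without ID2_31) and Ppard in ID2 against LAC in 2 of 6 (0.0703 without LAC_213). In ID2 against LAC, Ppard also lost its call in 5 of 10 other settings (edgeR adjusted p 0.198 with the clock covariate), Nr2f2 in 8 of 10 and Thra in 3 of 10 (edgeR adjusted p 0.256 and 0.270 with only animals numbered 200 or over).

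Of the 18 coregulators, which nuclear receptors recruit to genes, 2 rose and 1 fell from LAC to ID2, with a median of 0.07. That count stands beside 16.1% of all genes called in the same comparison. Ppargc1a, the coactivator PGC-1 alpha, averaged 5.34 ± 0.977 CPM in LAC and 11.6 ± 0.262 CPM in ID2 (SD, n = 3 and 3). It rose by 1.12 (log2, SE 0.26, edgeR adjusted p = 0.00451) and kept its call in all 6 fits without 1 library. Ppargc1b rose by 0.94, a call lost in 4 of 6 (edgeR adjusted p 0.173 without LAC_213), and Ncoa4 fell by 0.29, a call lost without LAC_213 (edgeR adjusted p 0.0662), where 1 coregulator was called in all.

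Chaperones that hold steroid receptors were mostly lower at ID2 than in LAC. Of 10 tested, 6 fell from LAC to ID2 and 0 rose, with a list median of -0.65 on the log2 scale beside 0.02 for all genes. Against NUL, 1 rose in LAC and 0 fell, with a median of 0.45. Hsp90aa1, the inducible HSP90 gene, read 301 ± 37.2 CPM in NUL, 524 ± 99.99 in LAC and 168 ± 33.9 in ID2 (SD, n = 4, 3 and 3), and fell by 1.64 on the log2 scale from LAC to ID2 (SE 0.37, edgeR adjusted p = 0.00475). Dnajb1, an HSP40 cochaperone, fell by 0.997 (SE 0.29, edgeR adjusted p = 0.0229). Bag1, a nucleotide exchange factor of HSP70, was the one that rose in LAC, by 0.37 (SE 0.10, edgeR adjusted p = 0.0116). Leaving out 1 library gave 4 (without ID2_31) to 6 called chaperones for ID2 against LAC, the title number covariate left 1 and the animals numbered 200 or over left 0. Dnajb1 lost its call in 4 of 6 such fits (edgeR adjusted p 0.127 without LAC_213) and Bag1 in 1 of 7 (0.0840, without LAC_213).

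Genes known as targets of the xenobiotic sensors moved in both directions, while the sensors Nr1i2 and Nr1i3 were not called. Of 21 PXR and CAR targets, 6 rose and 2 fell in LAC against NUL, with a median of 0.36, and 4 rose and 4 fell from LAC to ID2, with a median of -0.22. Cyp3a41a, a female-type cytochrome P450, rose in LAC from 373 ± 108 to 1238 ± 395 CPM (SD, n = 4 and 3, log2 1.73, SE 0.26) and read 1031 ± 215.1 in ID2 and 1224 ± 86.4 in ID4. Cyp2b13 fell in LAC by 1.46 and Ugt1a1, a bilirubin and steroid conjugating enzyme, by 0.44, a call lost without LAC_200 (edgeR adjusted p 0.0608). Gadd45b, a CAR-responsive stress gene, fell from LAC to ID2 by 2.36 (SE 0.43). Cytochrome P450 families hold near-identical copies, and how shared reads were split can affect Cyp3a41a and Cyp2b13. Without 1 library the list held 6 to 11 calls in LAC against NUL (6 without LAC_240, 11 without NUL_220) and 4 (without ID2_224) to 8 in ID2 against LAC.

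HNF4A targets gave 3 rises and 0 falls of 15 in LAC against NUL (median 0.16) and 1 rise and 2 falls from LAC to ID2 (median -0.02), while Hnf4a was not called. Pklr, the liver pyruvate kinase gene, rose from 225.96 ± 27.8 to 578 ± 7.18 CPM in LAC and fell to 181 ± 18.8 CPM in ID2 (SD, n = 4, 3 and 3), by 1.36 and -1.68 on the log2 scale. Mttp, needed to load lipid onto lipoproteins, fell from LAC to ID2 by 0.69 (SE 0.09). These Pklr and Mttp calls held in all fits without 1 library, while the list's count in LAC against NUL was 1 without LAC_213. Otc, a urea cycle enzyme gene, rose from LAC to ID2 by 0.38 (SE 0.11), a call lost in 2 of 6 such fits (edgeR adjusted p 0.0896 without LAC_240). Of 12 other hepatocyte transcription factors, edgeR called 0 in LAC against NUL and 0 in ID2 against LAC, with 2 and 3 at an unadjusted p under 0.05 and 0 and 1 called by DESeq2.

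FXR targets gave 1 rise and 0 falls of 9 tested in LAC against NUL, and 1 rise and 1 fall from LAC to ID2, with medians of 0.18 and 0.01. The list does not separate genes that FXR raises from those it lowers, so its counts and medians give no direction of FXR activity. Abcb11, the bile salt export pump, rose in LAC from 861 ± 114 to 1099 ± 50.2 CPM (SD, n = 4 and 3, log2 0.35, SE 0.11), a call lost in 6 of 7 fits without 1 library (largest edgeR adjusted p 0.132, without LAC_240). Osgin1 fell from LAC to ID2 by 0.91 (SE 0.20) and kept its call in all 6 such fits, but lost it in 2 of 10 other settings (edgeR adjusted p up to 0.268, with only animals numbered 200 or over). Nr0b2, the SHP repressor that FXR induces, read 57.4 ± 25.5 CPM in NUL and 29.3 ± 9.36 in LAC, a difference that did not pass (edgeR adjusted p = 0.139).

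Of 11 PPAR gamma targets tested, 2 rose and 1 fell in LAC against NUL, and 2 rose and 2 fell from LAC to ID2, with medians of -0.15 and -0.07. Lpl, the lipoprotein lipase gene, rose in LAC by 3.02 (log2, SE 0.31) and Cd36, a fatty acid transporter, by 1.27 (SE 0.20), both called in all 7 fits without 1 library, at Pparg levels of 8.37 ± 0.903 CPM in NUL and 7.47 ± 1.56 CPM in LAC (SD, n = 4 and 3). From LAC to ID2 Lpl fell by 1.84 (SE 0.33) and Cd36 by 0.67 (SE 0.21), the latter a call lost in 5 of 6 such fits (edgeR adjusted p 0.148 without ID2_224). Without LAC_213 the list held 2 calls in that comparison. Lpl lost its call from LAC to ID2 in 1 of 10 other settings and Cd36 in 6. Adipocyte marker sums, given above, also differed between NUL and LAC, and their part in these values was not tested.

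Hormone-responsive lists bear on Esr1 and Nr3c1. Of 6 estrogen-responsive genes tested of 10 listed, edgeR called 0 in LAC against NUL, ID2 against LAC and ID6 against ID4, and their medians were 0.34, 0.35 and -0.21. Greb1, Pgr, Tff1 and Gper1 had too few reads to be tested, so the counts for these 6 do not cover them. At an unadjusted p under 0.05 there were 0, 1 and 2 of them, and DESeq2 called 0, 0 and 1. Of 17 glucocorticoid-responsive genes, 0 rose and 2 fell in LAC against NUL (median -0.33), 3 rose and 1 fell from LAC to ID2 (median 0.37), and 1 rose and 4 fell from ID4 to ID6 (median -0.22). These counts depended on single libraries, with 0 called in LAC against NUL without LAC_200 and 2 called in ID6 against ID4 without ID4_13. Pck1, the gluconeogenic enzyme PEPCK and also on the PPAR gamma list, read 1643 ± 488 CPM in NUL, 642 ± 256 in LAC and 3046 ± 782 in ID2 (SD, n = 4, 3 and 3). It fell by 1.36 (log2, SE 0.42) in LAC against NUL and rose by 2.25 (SE 0.46) from LAC to ID2, where it was called in all 6 fits without 1 library and in 10 of 10 other settings. The fall in LAC lost its call in 4 of 7 (edgeR adjusted p 0.199 without LAC_213). Pdk4, which spares glucose by braking pyruvate oxidation, went the other way from LAC to ID2, with a fall of 1.40 (SE 0.33), a call lost in 2 of 10 other settings. Lcn2, an acute-phase gene, rose by 4.199 (SE 0.94), with very unequal ID2 libraries (36.1 ± 38.0 CPM, SD, n = 3) and a call lost in 3 of 10 other settings. Among the steroid-handling genes, Serpina6, the corticosteroid-binding globulin of plasma, rose from 195 ± 12.1 CPM in LAC to 465 ± 83.5 in ID2 (log2 1.25, SE 0.31, edgeR adjusted p = 0.00851) and was called in all 6 such fits, but not with the clock covariate (edgeR adjusted p 0.232). Srd5a1, steroid 5 alpha-reductase, rose in LAC against NUL by 0.59 (SE 0.16), a call lost in 3 of 7 such fits (edgeR adjusted p 0.109 without LAC_200).

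**Figure D3:**
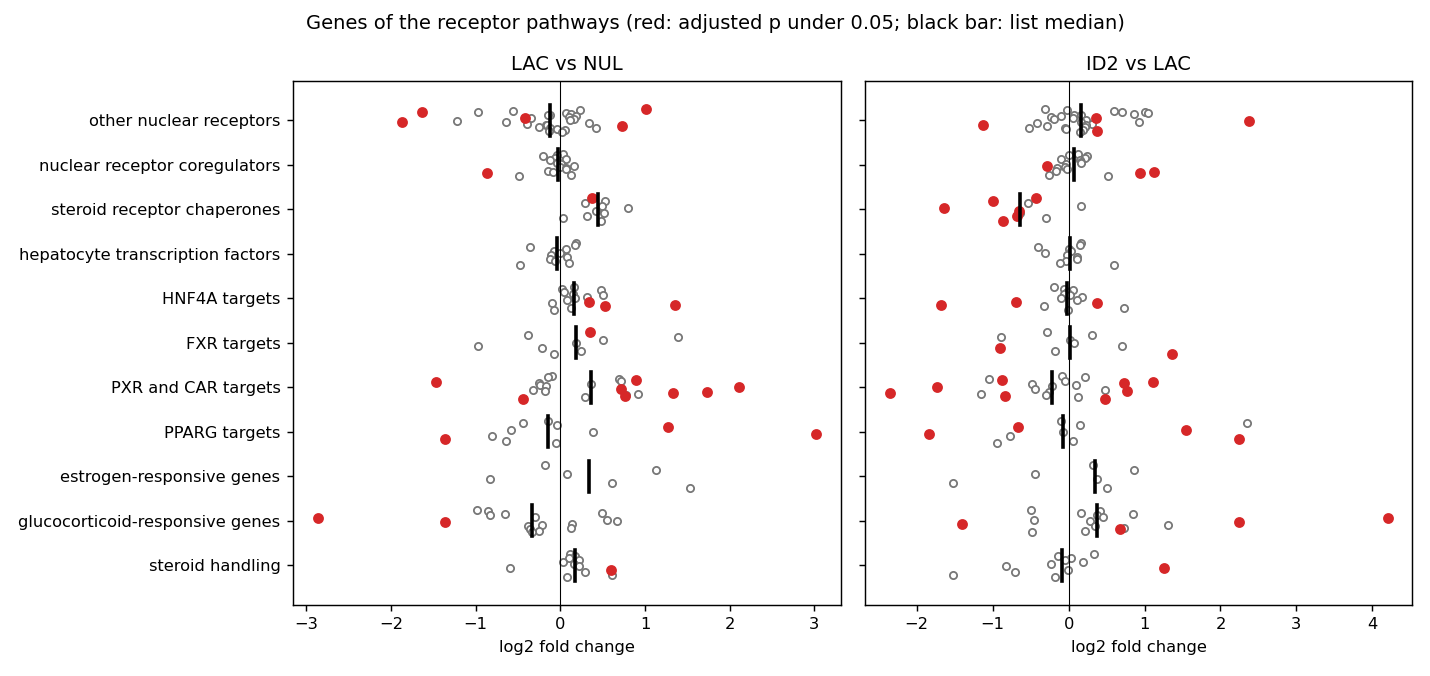
Log2 fold changes from the edgeR fit for the genes of 11 lists, LAC against NUL at the left and ID2 against LAC at the right, with called genes in red and a black bar at each list's median. The chaperone medians stand at 0.45 and -0.65, on opposite sides of 0.

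From ID4 to ID6, when Rxra and Esr1 fell, 2 of 30 other nuclear receptors rose and 0 fell (Ppard and Rarg), and Rarg lost its call in all 10 fits without 1 library (largest edgeR adjusted p 0.143, without ID4_13). Of 21 PXR and CAR targets, 5 fell and 2 rose, among them Cyp3a41a (-0.95, SE 0.22) and Cyp3a16 (-0.92, SE 0.16). Of 12 steroid-handling genes, 4 fell and 0 rose (2 called without ID4_13): Hsd17b2, which inactivates estradiol, fell by 0.57 (SE 0.11) and kept its call without each library in turn, while Akr1d1 fell by 0.42 (SE 0.12) and lost it in 2 of 10 such fits (edgeR adjusted p 0.0991 without ID4_211). Kupffer markers were high on both sides, with 606 to 666 CPM in ID4 and 487 to 776 CPM in ID6, and erythroid transcripts fell from 407 to 1027 CPM in ID4 to 53.1 to 264 CPM in ID6, with 5 of 5 tested markers called lower. Their part in the receptor changes was not tested. On log2(TPM + 1) in place of counts the differences were -0.24 for Rxra (limma adjusted p 0.113) and -0.37 for Esr1 (limma adjusted p 0.0711), and neither was called. With the title number as covariate they were -0.29 (edgeR adjusted p 0.0789) and -0.49 (0.0774), and with the clock covariate -0.29 (0.0675) and -0.36 (0.108). The share of called genes that were higher moved from 45.6% on counts to 82.2% on that scale.

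Across the 27 libraries, the genes whose log2 CPM ran most closely with each of the 4 receptors that differed among stages were Cpt1a (Pearson r 0.88), Apon (0.85) and Cpn2 (0.83) for Rxra, Samd9l (0.89), Nrp2 (0.87) and Bmf (0.85) for Nr3c1, Adcy9 (0.84), Sun1 (0.83) and Zfp395 (0.82) for Nr5a2, and Dck (0.83), Slc37a1 (0.82) and Inf2 (0.81) for Esr1. These are the 3 highest for each among tested genes with a mean log2 CPM of 1 or more, leaving out placeholder symbols (Gm numbers and Rik names). They are given as a description over libraries that share stages. Cpt1a encodes the enzyme that admits long-chain fatty acids to mitochondria.

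Between the receptors themselves, the closest pair over the 27 libraries was Nr5a2 with Nr3c1 (r 0.61), which dropped to 0.35 once stage means were removed. Nr1h4 and Esr1 ran opposite (r -0.58, and -0.46 within stages). The pair Nr1h4 and Nr1i3 was closer within stages (0.58) than over all libraries (0.47), and Nr1i3 and Esr1 were more opposed within stages (-0.59 against -0.38).

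**Figure D4:**
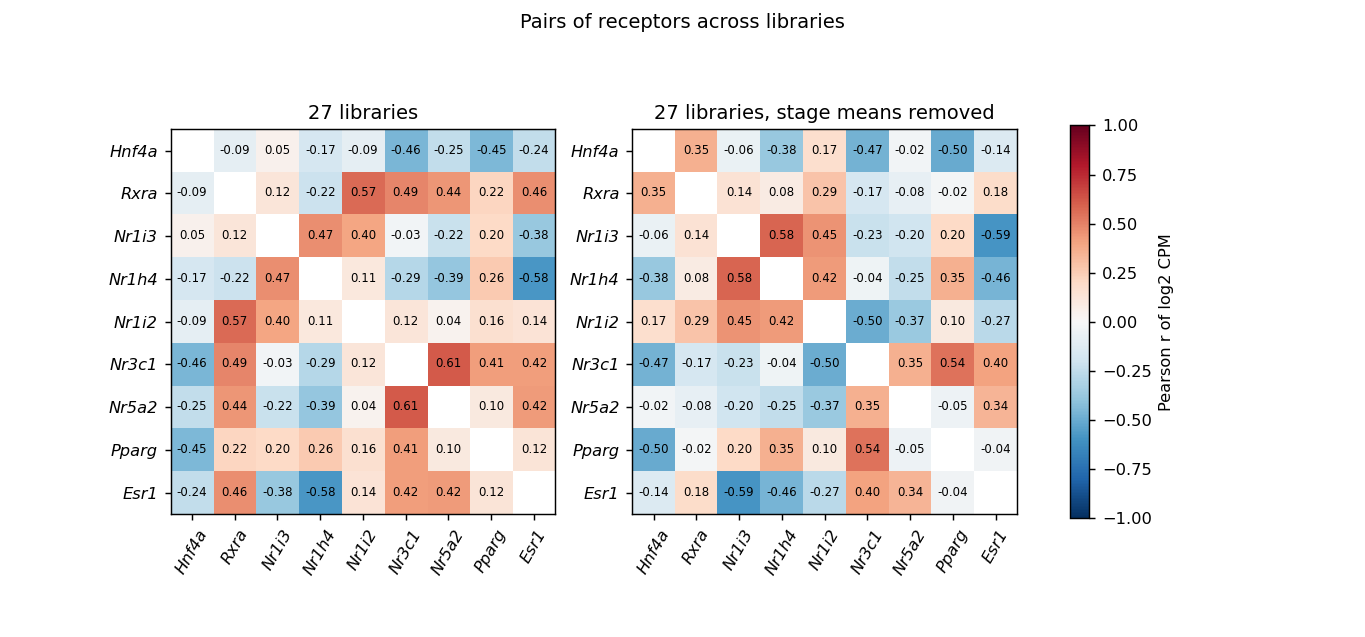
Pearson r of log2 CPM for each pair of receptors over 27 libraries, as measured at the left and with stage means removed at the right, coloured from blue (-1) to red (1). Nr5a2 with Nr3c1 is 0.61 at the left and 0.35 at the right, and Nr1i3 with Esr1 is -0.38 and -0.59.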

How the data were processed

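Liver RNA from 27 animals was sequenced. The deposited notes list 2 sequencing runs for 16 libraries and 1 for the other 11. Per the submitters' processing notes, STAR 2.6.1a and RSEM 1.3.1 were used with mm10/GRCm38. Per the file headers, the deposited tables give for each gene an expected count, the authors' estimate of its reads, not normalised between libraries, and TPM, the authors' length-scaled value. Fractional values, from reads that fit several genes, were held by 17.5% to 18.8% of the detected genes of a library.

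Stages were taken from the labels, and each library is a separate animal. After rounding of the expected counts, edgeR 4.0.16 (R 4.3.3) was run: filterByExpr by stage (16428 genes, at least 99.978% of each library's counts), TMM, and 1 quasi-likelihood fit of all 27 libraries. Tests were two-sided, with Benjamini-Hochberg adjustment over all genes in each of 11 comparisons and in the joint test, and a call at an adjusted p under 0.05. Alternatives used DESeq2 1.42.0 and limma 3.58.1 on log2(TPM + 1) and log2(TPM + 0.1), covariates, fewer groups and each library left out. Promoter windows came from RefSeq (GRCm38.p6), with positions of genes from the reference annotation on GRCm38.

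The receptors and all gene lists were chosen with earlier results of these data known. Genes named from a list were those with the largest changes, up to 2 in each direction, among called genes whose groups' libraries did not overlap and whose mean log2 CPM was 1 or more. Nr0b2 was added after its values were seen. No marker or gene list was given a test as a set. Libraries held 41120650 to 75664540 estimated reads, and the 3 to 6 animals of a group limit the precision.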

Additional observations from a re-analysis of the deposited data

Results flagged for a closer look

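In 36 groups of a receptor and a stage with 4 to 6 libraries, 3 had a library whose gap to the nearest other library exceeded Dixon's 95% limit, and chance gives about 1 in 20. Nr1h4 read 90.5 CPM in REG_234. Nr1i3 read 192.3 CPM in ID4_215, and Esr1 read 21.67 CPM in the same library, the lowest of the 4 ID4 values. Leaving out ID4_215 gave a difference of -0.69 (log2) for Esr1 in ID6 against ID4, beside -0.60 with it, and it remained called (edgeR adjusted p 0.00506).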

How the results depend on the processing

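Among the 9 receptors, the number that differed among the 7 stages was 4. It was 2 with limma on log2(TPM + 1), also 2 for log2(TPM + 0.1), and 1 with only animals numbered 200 or over, a test over 6 stages because no ID8 animal remains. Leaving out 1 library gave 2 to 4. For LAC against NUL the count of 1 became 0 on both TPM scales and with only the 2 groups in the fit, and 0 to 1 without 1 library. The 4 of ID2 against LAC became 1 with limma on log2(TPM + 1), 2 for log2(TPM + 0.1), 1 with the title number as covariate, 0 with only animals numbered 200 or over and 0 with the clock covariate. Leaving out 1 library gave 0 (LAC_213) to 4. For ID6 against ID4 the count of 2 became 0 on both TPM scales, with the title number, with only animals numbered 200 or over and with the clock covariate, and stayed at 2 in every fit without 1 library. Counts of 0 became 1 for ID2 against NUL with DESeq2 and with only the 2 groups in the fit, 1 for ID4 against NUL with only the 2 groups, and 0 to 1 for ID8 against ID6 without 1 library (Nr1i2, without ID8_14). DESeq2 (apart from ID2 against NUL), RLE factors, no filter and the number of sequencing runs left these counts within a factor of 1.5. No called receptor changed sign under any alternative run. The cause was not tested. No paired analysis was possible because no title number occurs in more than 1 group. Fits limited to animals numbered 200 or over leave 1 ID2 library, which is assumed to vary like the other groups.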

Other observations

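Between ID6 and ID8 edgeR called 0 of the 9 receptors and 4.12% of all genes. Of 9 FXR targets, a list not split by the direction of FXR's effect, 2 were higher and 1 lower at ID8. Of 15 HNF4A targets 1 was higher and 0 lower, namely Cyp8b1, which is also on the FXR list. Of 21 PXR and CAR targets 1 was higher (Cyp2b9, edgeR adjusted p 0.0403) and 1 lower (Ugt1a1, edgeR adjusted p 0.0463), both close to the threshold. No PPAR gamma target (0 of 11), estrogen-responsive gene (0 of 6) or glucocorticoid-responsive gene (0 of 17) was called by edgeR, with 4, 1 and 3 at an unadjusted p under 0.05. Cyp8b1, which sets the hydroxylation of bile acids, rose from 237 ± 48.3 to 466 ± 106 CPM (SD, n = 6 and 3, log2 0.97, SE 0.15), and Slc10a1, the bile salt importer, from 481 ± 45.0 to 670 ± 11.4 CPM (log2 0.48, SE 0.09). Osgin1 fell from 372 ± 44.1 to 136 ± 17.7 CPM (log2 -1.46, SE 0.19). These 3 calls held in all 9 fits without 1 library. In the same comparison 4 of 7 Kupffer cell markers and 4 of 5 erythroid markers were called lower, and of 16 clock genes 3 were called higher and 2 lower. Kupffer cell markers summed to 487 to 776 CPM in ID6 and 409.6 to 525 CPM in ID8, and erythroid markers to 53.1 to 264 and 19.9 to 35.03 CPM. Their part in these values was not tested. Cebpa, a hepatocyte transcription factor, rose by 0.53 (SE 0.13), a call lost in 3 of 9 such fits (edgeR adjusted p 0.104 without ID8_101b). With the title number as covariate the edgeR adjusted p was 0.0387 for Osgin1, 0.0874 for Cyp8b1, 0.119 for Slc10a1 and 0.733 for Cebpa. All ID8 animals and no ID6 animals carried numbers under 200, so that fit takes the effect of the number from ID2 and ID4.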
